A study of Homo sapiens with 30 samples.

Results

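The respiratory chain and the ATP synthase are the large protein assemblies of the inner mitochondrial membrane that turn the oxidation of NADH and succinate into ATP. Their nuclear genes were taken by symbol: every gene on the array whose symbol begins with NDUFA, NDUFB, NDUFC, NDUFS, NDUFV, UQCR, ATP5F1, ATP5M, ATP5P, COX4, COX5, COX6, COX7 or COX8, with CYC1 and the SDH subunits. Of the 11963 genes measured, 73 met the rule. They comprised 5 core and 23 accessory subunits of complex I, 3 subunits of complex II, 7 of complex III, 13 of complex IV and 15 of the ATP synthase. The NDUFA prefix also caught 5 assembly factors of complex I (NDUFAF1, NDUFAF3, NDUFAF4, NDUFAF5 and NDUFAF7), which build the complex and are not part of it. The remaining 2 are not subunits either: ATP5MC2P1 is a pseudogene of an ATP synthase gene and NDUFB2-AS1 an antisense RNA, and since reads of a copy or partner can be shared on an array their values are uncertain. The subunits NDUFS8, SDHB, UQCRFS1, NDUFA4 and COX4I2 were not analysed here.

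Complex I takes electrons from NADH and complex II from succinate, both pass them through ubiquinone to complex III, and cytochrome c carries them on to complex IV, where oxygen is reduced. Complexes I, III and IV pump protons, and the ATP synthase lets the protons back through a rotating ring to make ATP. Most subunits are encoded in the nucleus and made in a fixed ratio for assembly, which is why their transcripts are often described as a housekeeping set. A few subunits have isoforms that belong to heart and skeletal muscle.

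Gene expression was measured with Affymetrix arrays in human small airway epithelial (SAE) cells, primary cells of the narrow airways obtained from a commercial supplier. Cultures were exposed to MWCNT, multi-walled carbon nanotubes made of nested cylinders, or to titanium dioxide nanobelts (TiO2-NB, written TiO2 here, flat ribbons of the mineral). The 10 groups were the untreated control at 0 ug/ml, MWCNT at 10 ug/ml, MWCNT at 100 ug/ml, TiO2 at 10 ug/ml and TiO2 at 100 ug/ml, each after 1 h and after 24 h of culture, with 3 arrays a group labelled as biological replicates, 30 in all. All groups share the same cells, medium and monoculture on plastic, with no other cell type, and the labels do not say whether the replicates came from separate donors, so the p-values measure the spread between these cultures.

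Promoter sequence was examined because factors named nuclear respiratory factors are known to act on many of these genes. In the RefSeq promoter table (GRCh38.p14, 250 bases before to 50 after each transcription start), 63 of the 73 genes had an entry. The letters GCGCATGCG, part of the site of NRF1, occurred on either strand in the promoters of 12 of the 63 genes (19.0%) and in 2.34% of all 27305 genes in the table. CCGGAAG, the core bound by ETS factors and GABP, occurred in 19 of 63 (30.2%) against 12.2% of all genes, and AAGATGGCG, part of the YY1 site, in 8 of 63 (12.7%) against 2.14%. Searches were made separately, so matches can overlap, and a match is a string of letters, not a measured binding site. In all, 33 genes held at least 1 of the strings. Among the 20 genes called in any comparison described here, 19 had a promoter entry and 8 of those held a string. Shown are 6 of those 8, from 150 bases before to 30 bases after the start and read 5′ to 3′, with the matched letters in capitals. SDHD (chr11:112086723-112086902, plus strand) and NDUFS7 (chr19:1383757-1383936, plus strand) are genes that differed with TiO2. NDUFAF4 (chr6:96897862-96898041, minus strand), NDUFB8 (chr10:100529842-100530021, minus strand), ATP5ME (chr4:674247-674426, minus strand) and ATP5F1A (chr18:46098267-46098446, minus strand) are genes that changed with time in culture.
SDHD: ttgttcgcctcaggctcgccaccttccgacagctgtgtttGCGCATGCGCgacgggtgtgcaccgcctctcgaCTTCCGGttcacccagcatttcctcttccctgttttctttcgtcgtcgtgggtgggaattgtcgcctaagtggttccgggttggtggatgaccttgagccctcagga
NDUFS7: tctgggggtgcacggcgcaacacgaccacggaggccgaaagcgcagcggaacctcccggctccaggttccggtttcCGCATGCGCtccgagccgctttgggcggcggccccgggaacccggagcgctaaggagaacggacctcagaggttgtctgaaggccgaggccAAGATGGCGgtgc
NDUFAF4: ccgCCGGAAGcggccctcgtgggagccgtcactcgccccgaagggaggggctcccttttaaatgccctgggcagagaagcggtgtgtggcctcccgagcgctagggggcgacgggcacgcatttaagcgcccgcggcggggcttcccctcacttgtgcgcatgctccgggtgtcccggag
NDUFB8: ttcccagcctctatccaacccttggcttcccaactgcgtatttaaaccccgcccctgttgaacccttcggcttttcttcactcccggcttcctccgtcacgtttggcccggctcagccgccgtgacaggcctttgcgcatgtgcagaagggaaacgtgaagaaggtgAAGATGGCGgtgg
ATP5ME: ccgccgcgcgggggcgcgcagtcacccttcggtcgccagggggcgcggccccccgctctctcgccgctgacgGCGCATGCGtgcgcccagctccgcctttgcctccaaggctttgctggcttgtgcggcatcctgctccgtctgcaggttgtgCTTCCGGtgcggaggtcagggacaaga
ATP5F1A: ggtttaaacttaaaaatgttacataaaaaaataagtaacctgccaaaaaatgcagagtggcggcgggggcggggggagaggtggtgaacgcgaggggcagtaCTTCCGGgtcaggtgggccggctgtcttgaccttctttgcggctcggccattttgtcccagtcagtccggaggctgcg

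SDHD carried the NRF1 letters on both strands in an overlapping palindrome from 110 bases before the start, and the ETS letters from 77 bases before it. NDUFS7 carried the NRF1 letters from 74 bases before the start and the YY1 letters just after it. ATP5ME, which fell with time, and SDHD, which rose with TiO2, both held the NRF1 and the ETS letters. ATP5F1A, which rose with time, and NDUFAF4, which fell, held only the ETS letters among the strings searched. NDUFB8 held only the YY1 letters.

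The deposited values are on a log2 scale, normalised so that the arrays share one distribution, with array medians from 7.1529 to 7.2051. A difference is therefore relative to the other transcripts on the array, and 1 log2 unit is a doubling. Of 6 epithelial markers measured, KRT5, KRT8, KRT18 and CDH1 lay above the median of the table (7.1788), while KRT14 and EPCAM lay below it. None of the 4 endothelial, 4 muscle, 3 secretory and 2 ciliated markers measured lay above it, and neither did the immune markers PTPRC and CD3E; SFTPC (7.75), CD14 (7.71), COL1A1 and PDGFRB lay above it, and the other 3 alveolar (SFTPB, AQP5, AGER) and 4 fibroblast markers (COL1A2, COL3A1, LUM, DCN) below it. In a bulk culture, fewer cells and less RNA per cell cannot be told apart.

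Most of the respiratory chain genes gave bright signals. Of the 73, 68 (93.2%) averaged more than the table's median, against 57.9% of all genes, although brightness also depends on the probes and the levels of different genes were not ordered. All 5 core and 23 accessory subunits of complex I, all 3 of complex II, all 7 of complex III and all 15 of the ATP synthase were above it. Below it were the assembly factors NDUFAF5 (5.17) and NDUFAF7 (6.72), the antisense RNA NDUFB2-AS1 (6.65) and the subunits COX6A2 (5.86) and COX7A1 (5.52) of complex IV. COX6A2 and COX7A1 are the isoforms of heart and skeletal muscle. COX6A2 ranged from 5.75 to 5.93 over the 10 group means and COX7A1 from 5.41 to 5.63, and neither passed the test in any comparison. Their counterparts in other tissues, COX6A1 (group means 13.08 to 13.20) and COX7A2 (12.26 to 12.37), were bright in each group. COX7A2L, which helps join complexes III and IV, ranged from 11.43 to 11.51, and COX4I1, the common form of a regulatory subunit, from 12.22 to 12.30. COX5A, COX5B, COX7B and COX8A stayed within 12.50 to 12.60, 12.36 to 12.47, 11.93 to 12.03 and 12.92 to 13.11.

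The levels of these genes varied little over the 10 groups. The range of the group means, highest minus lowest, had a median of 0.157 over the 73 genes and was at most 0.2 for 53 of them. Over the 6923 genes above the median of the table it had a median of 0.28, and over all 11963 genes 0.294. Only 2 of the 73 (2.74%) had a range over 0.5, against 16.8% of the brighter genes. Among genes with a mean above 11, the median range was 0.133 for 54 respiratory chain genes and 0.192 for 1154 genes in all, with 0 and 7.54% over 0.5. That limit is only a floor, the 54 are among the 1154, and brightness above the floor was not matched. The spread between replicates was also smaller, with a median SD of 0.05 for the respiratory chain genes and 0.075 for the brighter genes, and at a mean above 11 of 0.044 and 0.052. These ranges are descriptions and were not tested.

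**Figure D1:**
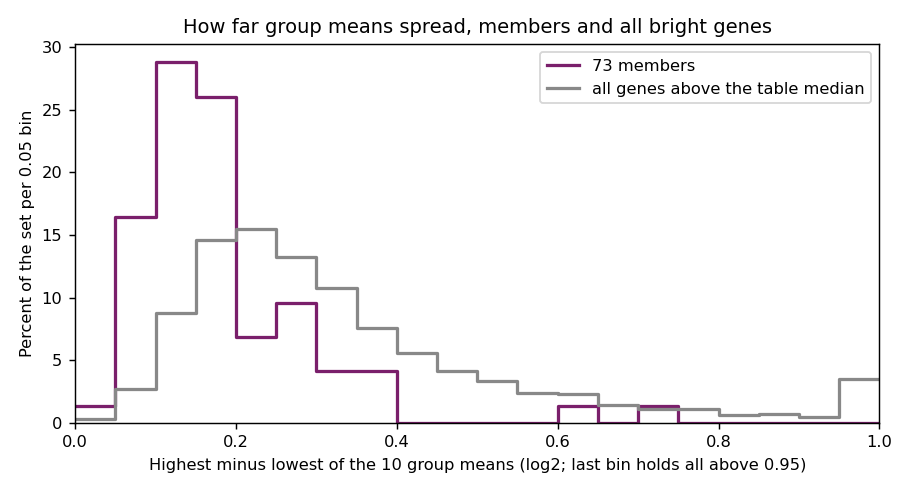
Distribution of the range of the 10 group means (highest minus lowest, log2, x axis) as percent of each set per bin of 0.05 (y axis, the last bin holding all above 0.95), for the 73 respiratory chain and ATP synthase genes (purple) and, in grey, for the 6923 genes above the median of the table. The respiratory chain genes pile up at the left, with a median of 0.157 against 0.28.

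The 2 genes with a range over 0.5 were both assembly factors, NDUFAF4 (0.70) and NDUFAF7 (0.63). Among true subunits NDUFB7, an accessory subunit of the membrane arm of complex I, had the widest range, 0.38, followed by NDUFA10 (0.36), the NADH-binding subunit NDUFV1 (0.36), NDUFA5 (0.34) and ATP5MC1 (0.32), which encodes the c subunit of the rotor ring. At the other end, NDUFC1 spanned 0.04, NDUFB4 0.06, ATP5MJ 0.07, and COX4I1, SDHC, NDUFB3 and ATP5MC3 0.08 each. The catalytic ATP synthase subunit ATP5F1B spanned 0.10, and the complex III subunits CYC1, UQCRC2 and UQCRC1 spanned 0.11, 0.10 and 0.17. NDUFA5, an accessory subunit of the matrix arm, varied within groups as much as between them, with an SD of 0.33 in the 1 h control and 0.32 in the 24 h control.

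The comparison of the untreated control at 24 h with that at 1 h asks how the genes changed with time in culture alone. Time moved more of these genes than any particle did: 16 of 73 (21.9%) passed the test, 7 higher and 9 lower at 24 h, where 31.7% of all genes were called, 19.3% higher and 12.4% lower (limma, adjusted over all genes, threshold 0.05). The median difference was -0.022 for the respiratory chain genes and -0.011 for all genes, and the median size regardless of sign was 0.062 and 0.131. With complex I, 1 core subunit rose, 2 accessory subunits rose and 4 fell, and 1 assembly factor rose and 2 fell. In complex II 1 of 3 rose, in complex III 0 of 7 passed, in complex IV 1 of 13 fell, and in the ATP synthase 2 of 15 rose and 2 fell.

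**Figure D2:**
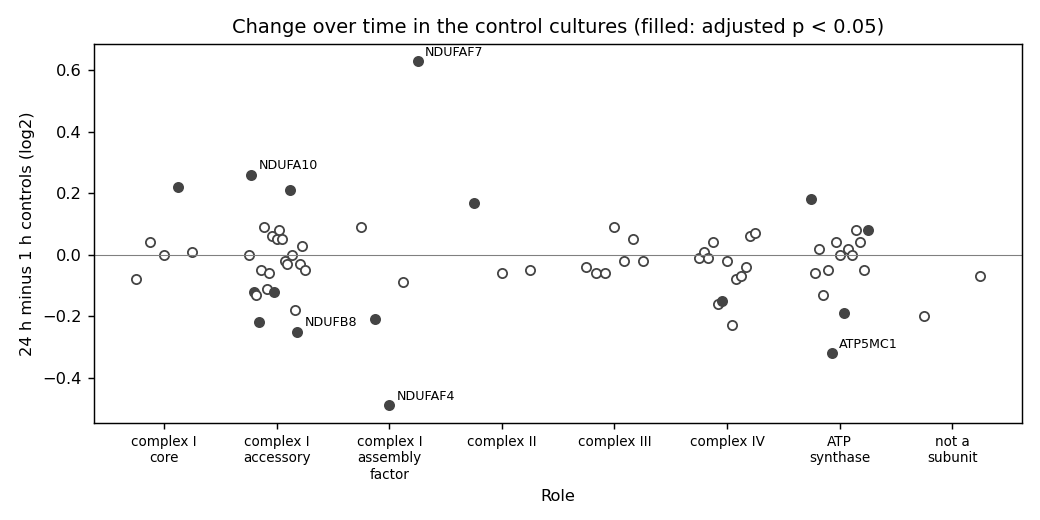
Difference between the control means at 24 h and 1 h (log2, y axis) for each of the 73 genes (points), by role (x axis), filled where limma's adjusted p is under 0.05. NDUFAF4 at -0.49 and NDUFAF7 at 0.63 lie farthest from 0 and the other genes between -0.32 and 0.26.

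The assembly factors showed the widest changes. NDUFAF4, which with NDUFAF3 builds the arm of complex I that holds the ubiquinone site, read 10.04, 9.79 and 10.06 on the 1 h control arrays and 9.55, 9.39 and 9.47 on the 24 h control arrays. The groups did not overlap, and the level fell by 0.49 ± 0.06 (SE), from 9.96 ± 0.15 to 9.47 ± 0.08 (SD, n = 3, limma adjusted p = 1.76e-06), a 1.41-fold change. NDUFAF3 read 9.77, 9.85 and 9.87 at 1 h and 9.53, 9.69 and 9.64 at 24 h, and fell by 0.21 ± 0.05 (limma adjusted p = 0.00105). NDUFAF7, a methyltransferase that modifies a core subunit during assembly, went the other way: 6.61, 6.30 and 6.46 at 1 h and 7.24, 6.98 and 7.03 at 24 h. It rose by 0.63 ± 0.12 (limma adjusted p = 0.000246), 1.55-fold, and its signal stayed near or below the median of the table.

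Within complex I itself the changes went both ways. The genes that rose were NDUFA10, an accessory subunit of the membrane arm, by 0.26 ± 0.05 (10.34, 10.47 and 10.36 at 1 h, 10.76, 10.58 and 10.61 at 24 h, limma adjusted p = 0.000565), NDUFV1 by 0.22 ± 0.06 (limma adjusted p = 0.00633) and the membrane-arm subunit NDUFB5 by 0.21 ± 0.04 (11.02, 11.04 and 11.04 at 1 h, 11.28, 11.23 and 11.23 at 24 h, limma adjusted p = 0.000151). NDUFV1 read 11.28, 11.41 and 11.27 at 1 h and 11.43, 11.61 and 11.58 at 24 h, so its groups were separated by little. The genes that fell were NDUFB8 by 0.25 (limma adjusted p = 0.000905), NDUFA3 by 0.22 (limma adjusted p = 0.00119), NDUFA13, also known as GRIM-19, by 0.12, and NDUFAB1, the mitochondrial acyl carrier protein, by 0.12. For NDUFB8, a second bright probe set gave -0.28, while another one of low signal (mean 7.43) gave 0.39, and with the mean of its probe sets the difference was -0.05 and the call was lost. The other core subunits NDUFS1, NDUFS3, NDUFS7 and NDUFV2 did not pass.

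In complex II the flavoprotein SDHA, which oxidises succinate, rose by 0.17 ± 0.04 (limma adjusted p = 0.00345), from 11.77, 11.87 and 11.72 to 11.91, 11.99 and 11.98. Its probe set is of a kind that can match related sequences, and SDHA has pseudogenes, so part of the signal may not be its own. The membrane anchors SDHC and SDHD did not pass. COX6B1, on the outer face of complex IV, fell by 0.15, from 11.54, 11.57 and 11.52 to 11.34, 11.47 and 11.38 (limma adjusted p = 0.0375), and was the only called subunit of complexes III and IV.

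In the ATP synthase 2 genes fell and 2 rose, and the other 11 did not pass. ATP5MC1 read 11.27, 11.27 and 11.24 at 1 h and 11, 10.88 and 10.95 at 24 h, a fall of 0.32 ± 0.04 (limma adjusted p = 2.71e-06), 1.25-fold. ATP5ME, a small membrane subunit at the interface of the dimer, fell by 0.19 ± 0.06 (limma adjusted p = 0.0136), and its second probe set gave -0.23. Both sets are of the kind that can match related sequences. ATP5F1A, the alpha subunit of the catalytic head, rose by 0.18 ± 0.04, from 13.25 on each array to 13.37, 13.46 and 13.45 (limma adjusted p = 0.000411). ATP5PO, the stalk protein that ties the head to the membrane part, rose by 0.08 ± 0.03, from 12.70, 12.71 and 12.75 to 12.82, 12.80 and 12.78 (limma adjusted p = 0.046). The other c subunit genes, ATP5MC2 and ATP5MC3, did not pass.

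The calls of ATP5MC1, NDUFA10, NDUFAF4 and NDUFB5 held in all 12 alternative settings and those of NDUFAF7 in all 11 it was tested in. Fitting the 2 control groups alone left 5 calls in place of 16. ATP5ME lost its call without 1 h control array 3 or without 24 h control array 1 or 3 (adjusted p up to 0.111 over its alternatives), and NDUFA13, NDUFAB1 and COX6B1 lost theirs without 24 h control array 1 or 3. The same happened without 1 h control array 2 or 3 for NDUFA13, without 1 or 3 for NDUFAB1 and without any of the 3 for COX6B1 (adjusted p up to 0.254, 0.257 and 0.164). ATP5PO lost its call without 1 h control array 1 or 2 or any 24 h control array, and also with array weights (adjusted p up to 0.37).

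The exposed cultures were also sampled at both times, so the change with time could be read within each of the 5 exposures, as a description. Of the 16 genes called in the controls, 13 had a 24 h mean on the same side of the 1 h mean in all 5 exposures, and of the 3796 genes called in all, 86.3% did. The 7 genes that rose did so throughout: NDUFAF7 was higher by 0.36 to 0.63, NDUFA10 by 0.19 to 0.27, NDUFV1 by 0.19 to 0.36, NDUFB5 by 0.16 to 0.22 and ATP5F1A by 0.12 to 0.18. NDUFAF4 was lower at 24 h by as much with particles as without, with differences from -0.60 to -0.40. Several of the other falls were smaller in the exposed cultures, although NDUFAB1 and NDUFA13 differed as much with TiO2 at 10 ug/ml (-0.13 each) as in the controls (-0.12 each). ATP5MC1 differed by -0.32 in the controls and by -0.20 to -0.12 with particles, and NDUFAF3 by -0.21 in the controls and by -0.14 to -0.02 with particles. NDUFA3 differed by -0.22 in the controls, by 0.01 and 0.04 with MWCNT, and by -0.10 and -0.13 with TiO2.

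The 16 genes were chosen on the control arrays themselves, so the sizes in the controls and in the exposed cultures were not compared by a test. The 1 h control had the highest of the 10 group means for 18 of all 73 genes (24.7%) and for 15.1% of the genes on the array. This was not particular to the 1 h control. MWCNT at 10 ug/ml for 24 h was highest for 17 (23.3%) and for 8.88% of the genes on the array. TiO2 at 100 ug/ml for 24 h was highest for 16 (21.9%) and for 12.6%. Whether the 1 h control or the exposed groups stood apart cannot be told apart in this design, because each 1 h comparison uses the same 3 control arrays.

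**Figure D3:**
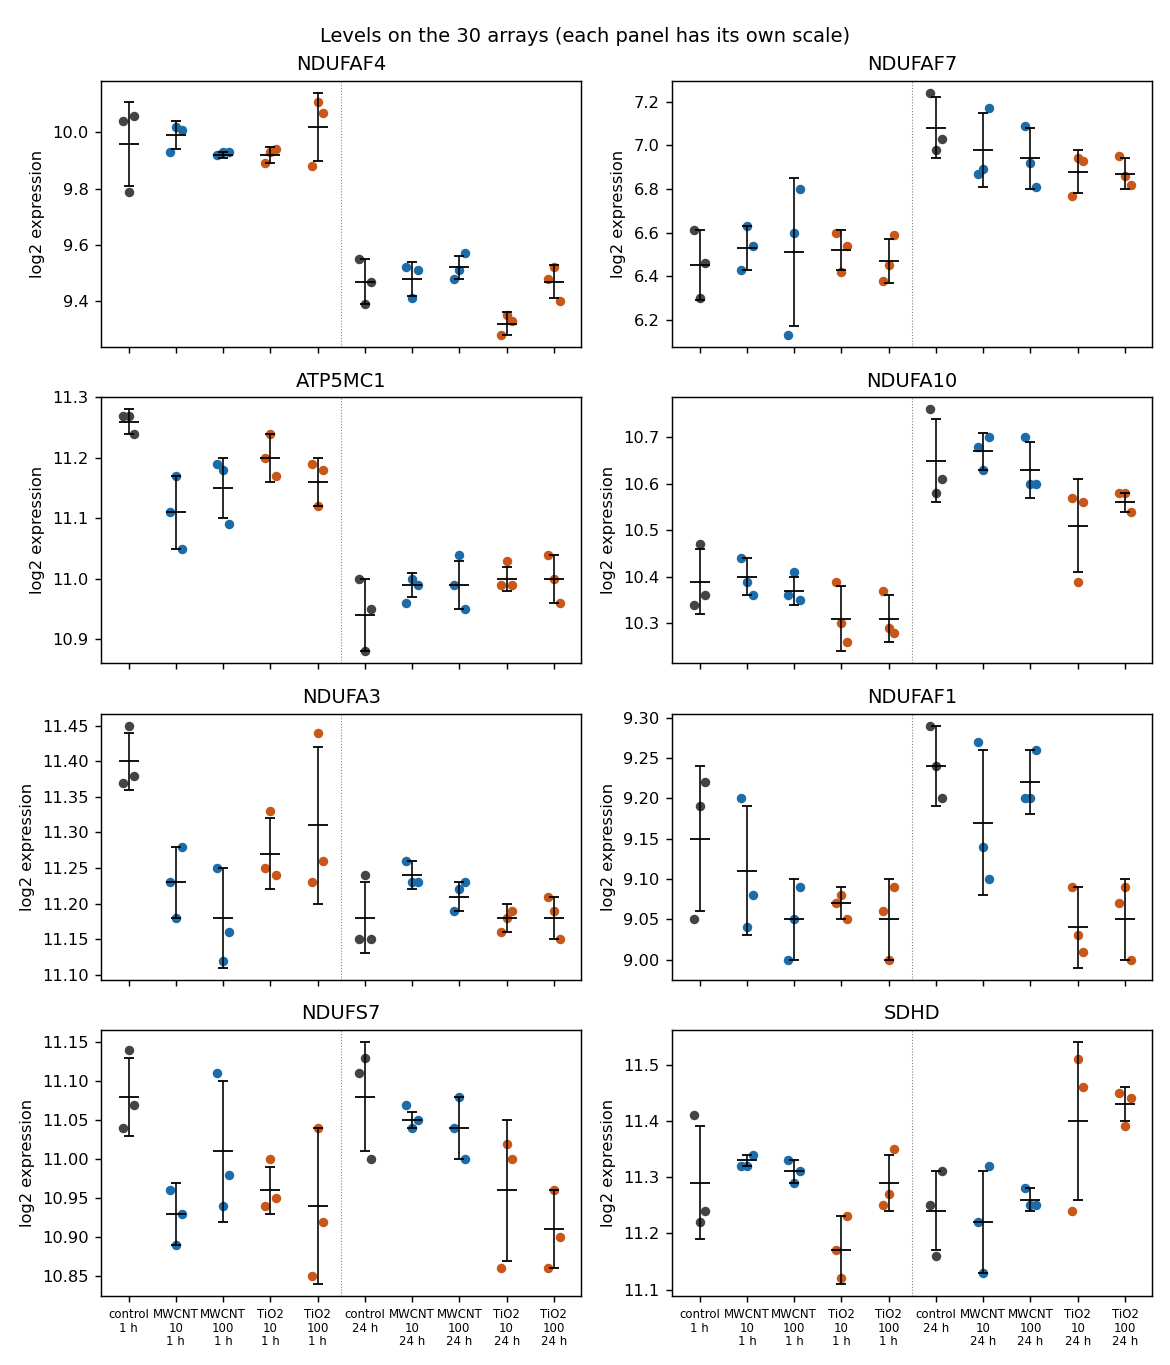
Log2 expression of 8 respiratory chain genes on each of the 30 arrays (points) with the mean and SD of each group of 3 (bars), 1 h groups at the left and 24 h groups at the right of each panel, controls in grey, MWCNT in blue and TiO2 in orange. Each panel has its own scale: NDUFAF4 and ATP5MC1 are lower and NDUFAF7 and NDUFA10 higher at 24 h in all exposures, and NDUFA3 is highest in the 1 h control (11.40 ± 0.04).

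The comparisons at 1 h ask what contact with a particle does first. After MWCNT at 100 ug/ml, 1 of 73 genes passed, NDUFA3, an accessory subunit in the membrane arm of complex I, where 1.7% of all genes were called. NDUFA3 read 11.37, 11.45 and 11.38 in the controls and 11.25, 11.12 and 11.16 after MWCNT, without overlap. It fell by 0.22 ± 0.05, from 11.40 ± 0.04 to 11.18 ± 0.07 (SD, n = 3, limma adjusted p = 0.0161), a 1.17-fold change. The call held in 8 of 12 alternative settings. When the other 8 groups were dropped from the fit, or without control array 2 or MWCNT array 2 or 3, 0 of the 73 passed, and the adjusted p of NDUFA3 reached 0.243.

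The other 1 h comparisons gave 0 called genes: with MWCNT at 10 ug/ml (0.0669% of all genes called), TiO2 at 10 ug/ml (0.711%) and TiO2 at 100 ug/ml (2.12%). At an unadjusted p under 0.05 limma gave 13, 7 and 7 genes. The largest differences were NDUFA3 with MWCNT at 10 ug/ml (-0.17 ± 0.05, limma adjusted p = 0.249), the pseudogene ATP5MC2P1 with TiO2 at 10 ug/ml (-0.29 ± 0.12, limma adjusted p = 0.5) and NDUFB7 with TiO2 at 100 ug/ml (-0.24 ± 0.07, limma adjusted p = 0.0762). NDUFB7 read 10.28, 10.27 and 10.33 in the controls and 9.83, 10.21 and 10.11 with TiO2, so 1 array lay well below the other two. Without array 2 of TiO2 at 100 ug/ml, 2 of the 73 genes passed in that comparison.

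The signs at 1 h leaned downward by small amounts. Differences from the control were below 0 for 54 genes with MWCNT at 10 ug/ml (median -0.041), 68 with MWCNT at 100 ug/ml (median -0.061), 64 with TiO2 at 10 ug/ml (median -0.045) and 53 with TiO2 at 100 ug/ml (median -0.029). Over all genes 55.9%, 59.4%, 59% and 63.4% lay below 0, with medians of -0.016, -0.021, -0.018 and -0.028. Over the alternative settings the 4 medians ran from -0.043 to -0.027, from -0.077 to -0.042, from -0.054 to -0.027 and from -0.051 to -0.010, and that of TiO2 at 100 ug/ml was -0.010 with cyclic loess. The 4 comparisons share their 3 control arrays and are not separate evidence. After MWCNT at 100 ug/ml all 15 ATP synthase subunits and all 5 core subunits of complex I lay below 0, with medians of -0.05 and -0.07. The dim assembly factor NDUFAF5 had the largest difference there, -0.29 ± 0.10, and did not pass (limma adjusted p = 0.22). After NDUFA3, the subunits farthest below 0 were COX6B1 (-0.16), NDUFB7 (-0.14) and NDUFB8 (-0.13), and none of these passed.

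An array level, the mean deviation of the 73 genes from their own means over the 30 arrays, shows the same by culture. The 3 control arrays at 1 h ran from 0.023 to 0.036 (mean 0.029 ± 0.007, SD). The mean was -0.009 ± 0.006 with MWCNT at 10 ug/ml, -0.034 ± 0.023 with MWCNT at 100 ug/ml, -0.024 ± 0.013 with TiO2 at 10 ug/ml and -0.011 ± 0.039 with TiO2 at 100 ug/ml. In the last group array 2 stood at 0.030, inside the range of the controls, while the other 1 h exposed arrays all lay below them. At 24 h the control mean was 0.007 ± 0.021, with MWCNT 0.027 ± 0.010 and 0.020 ± 0.003 at the lower and the higher dose, and with TiO2 -0.011 ± 0.017 and 0.006 ± 0.015. At 24 h the arrays of the exposed groups overlapped those of the controls, and no p was attached to them because the genes were chosen as a set.

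**Figure D4:**
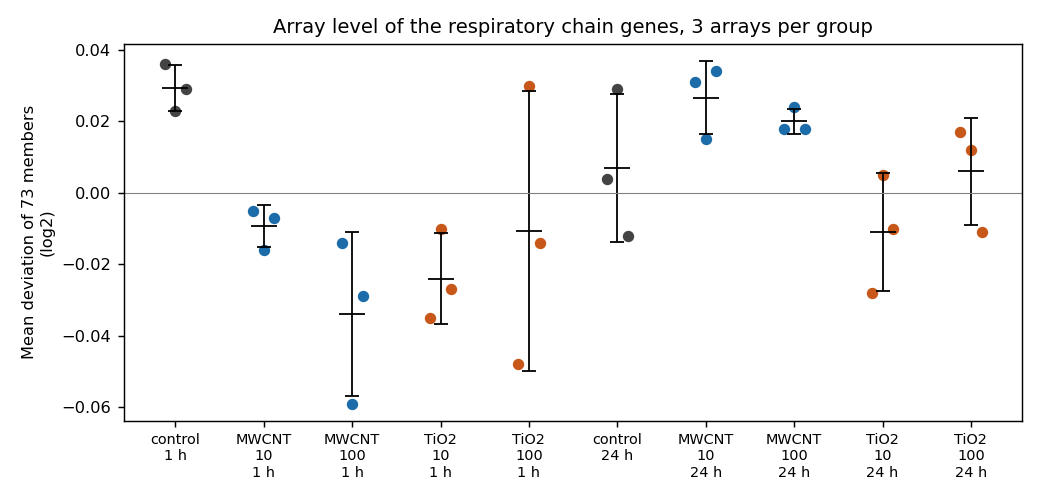
Mean deviation of the 73 respiratory chain and ATP synthase genes from their means over the 30 arrays (log2, y axis) for each array (points), with the mean and SD of each group of 3. All values lie within a few hundredths of 0, the 1 h controls between 0.023 and 0.036, and array 2 of TiO2 at 100 ug/ml for 1 h at 0.030 among them.

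After 24 h the question is whether the particles left a lasting difference. With MWCNT, 0 of 73 genes passed at 10 ug/ml and 0 at 100 ug/ml, where 0% of all genes were called in both. At an unadjusted p under 0.05 limma gave 0 and 1 of the 73. The largest differences were 0.12 ± 0.08 for the complex III core subunit UQCRC1 at 10 ug/ml (limma adjusted p = 0.999) and -0.14 ± 0.12 for NDUFAF7 at 100 ug/ml (limma adjusted p = 0.986). UQCRC1 read 11.58, 11.94 and 11.69 in the controls and 11.80, 11.92 and 11.84 with MWCNT, and the groups overlapped. The medians over the 73 genes were 0.019 and 0.020, with 55 and 48 genes above 0, where 46.7% and 46.1% of all genes were.

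With TiO2 at 24 h a few genes passed, fewer than the share of all genes. At 10 ug/ml 1 of 73 (1.37%) was called, where 6.05% of all genes were, and at 100 ug/ml 3 of 73 (4.11%), 1 higher and 2 lower, where 13.2% of all genes were, 4.3% higher and 8.89% lower. The medians were -0.014 and 0.002, and those of all genes -0.025 and -0.031. NDUFAF1, an early assembly factor of complex I, was called at both doses. It read 9.29, 9.24 and 9.20 in the controls, 9.09, 9.03 and 9.01 with TiO2 at 10 ug/ml, and 9.07, 9.09 and 9.0 at 100 ug/ml. The exposed arrays all lay below the controls, with falls of 0.20 ± 0.05 (limma adjusted p = 0.0316) and 0.19 ± 0.05 (limma adjusted p = 0.0211); both comparisons use the same controls. Both calls were lost after cyclic loess normalisation (adjusted p up to 0.199 and 0.24 over the alternatives).

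NDUFS7, a core subunit of complex I that holds an iron-sulfur cluster beside the ubiquinone site, read 11.11, 11.13 and 11 in the controls and 10.86, 10.96 and 10.90 with TiO2 at 100 ug/ml. It fell by 0.17 ± 0.05 (limma adjusted p = 0.039), 1.13-fold. The other core subunits tested lay below 0 too without passing: NDUFS1 at -0.09, NDUFS3 at -0.08, NDUFV1 at -0.05 and NDUFV2 at -0.05. Probe sets that carry the core subunit NDUFS8 together with other symbols were not tested and gave -0.20 and -0.15. SDHD, a membrane anchor of complex II, went up: 11.25, 11.16 and 11.31 in the controls, 11.45, 11.39 and 11.44 with TiO2. It rose by 0.19 ± 0.06 (limma adjusted p = 0.0421), 1.14-fold, and with TiO2 at 10 ug/ml its difference was 0.16 on arrays of 11.24, 11.51 and 11.46, which did not pass. A second SDHD probe set near the floor of the table (mean 4.07) gave 0.12. SDHA and SDHC, its partners, gave -0.09 and 0.05 and did not pass.

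These calls lay close to the threshold. When the groups outside the comparison were dropped from the fit, 0 of the 73 genes passed at either dose of TiO2. At 100 ug/ml 0 passed without control array 1 or TiO2 array 3, and 1 without control array 2 or TiO2 array 1. At 10 ug/ml 0 passed without control array 1 or TiO2 array 2 or 3, and 2 without control array 3 or TiO2 array 1. NDUFS7 kept its call in 5 of 12 alternative settings and SDHD in 4 of 12. The largest difference of all, 0.29 for NDUFA5 at 100 ug/ml, did not pass, on control arrays of 10.47, 9.89 and 10.42 and TiO2 arrays of 10.62, 10.71 and 10.33.

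**Figure D5:**
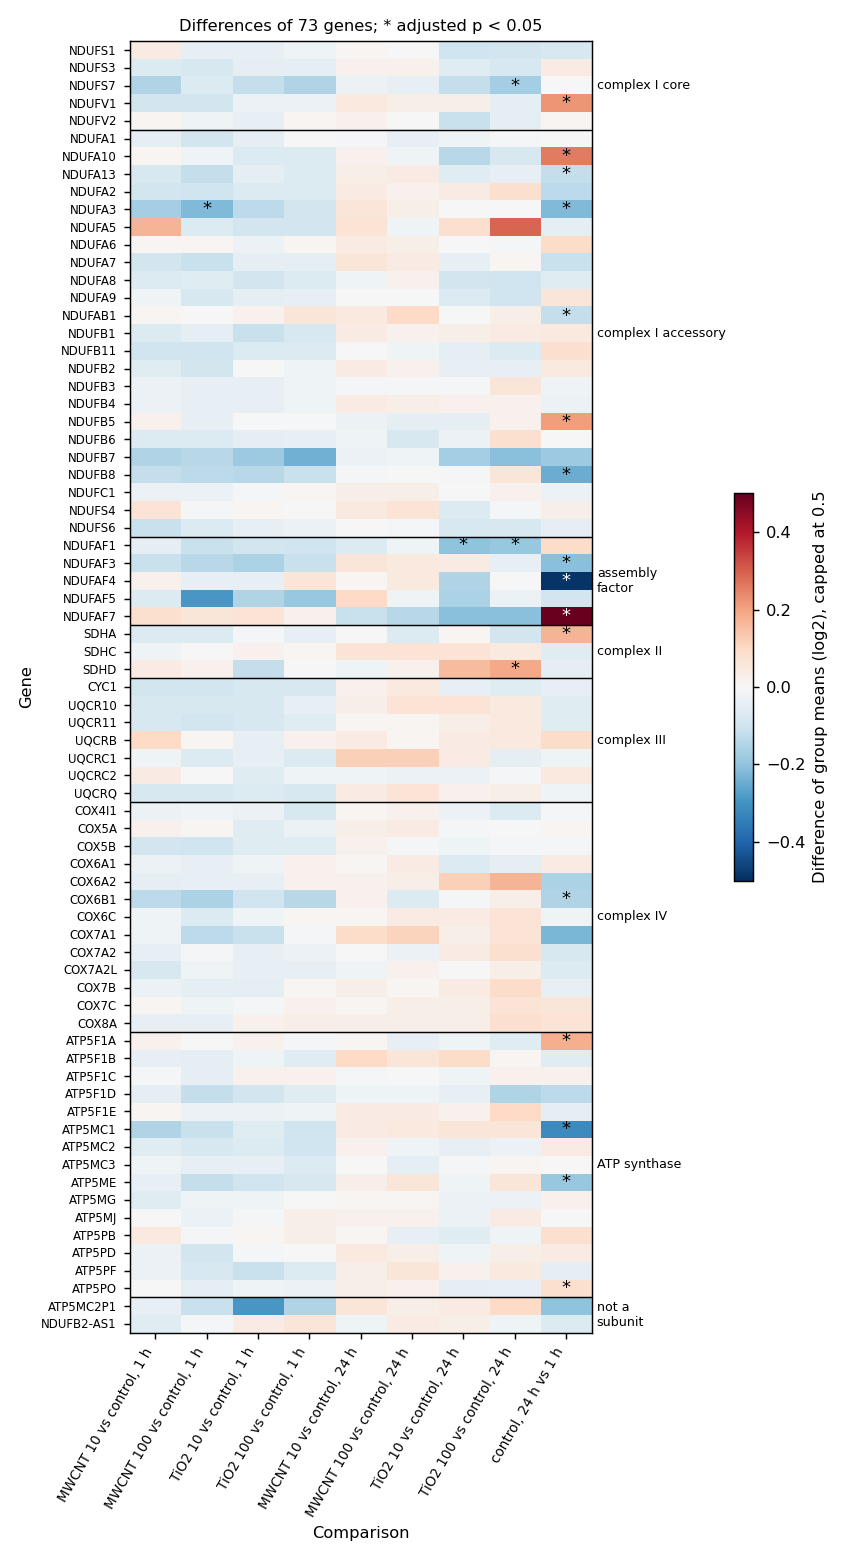
Log2 differences of the 73 genes (rows, by complex) from the control of the same time, and of the 24 h from the 1 h control (last column), with red above 0, blue below 0, colours capped at 0.5 and a star where limma's adjusted p is under 0.05. Most cells are pale: NDUFA3 with MWCNT at 100 ug/ml for 1 h, and NDUFAF1, NDUFS7 and SDHD with TiO2 at 24 h carry the stars among the comparisons with particles.

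Precision was enough to bound most of these genes. The 95% confidence interval of the difference lay within 0.5 log2 units of 0 (1.41-fold) for 72 or 73 of the 73 genes in each comparison of a particle with its control. In the control over time it did for 71 (97.3%), against 84.0% of all genes. With TiO2 at 100 ug/ml for 24 h it did for 98.6% of the respiratory chain genes and 92.0% of all genes. With groups of 3, the smallest two-sided p of an exact permutation test on a single gene is 0.10, and the calls therefore depend on limma's pooled spread.

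The particles were then compared with each other at the same dose and time. At 1 h 0 of 73 genes passed at either dose, where 0.00836% and 0.0167% of all genes were called, and limma gave 5 and 4 of the 73 at an unadjusted p under 0.05. At 24 h and 10 ug/ml 0 passed, where 4.88% of all genes were called, with 10 at an unadjusted p under 0.05; without array 1 of TiO2 at 10 ug/ml, 1 passed. At 24 h and 100 ug/ml 2 passed (2.74%), where 12.2% of all genes were called. NDUFAF1 was higher with MWCNT (9.20, 9.20 and 9.26) than with TiO2 (9.07, 9.09 and 9.0) by 0.17 ± 0.05 (limma adjusted p = 0.0377). NDUFB6, a membrane-arm subunit of complex I, was lower with MWCNT (11.63, 11.50 and 11.42) than with TiO2 (11.65, 11.70 and 11.68) by 0.16 ± 0.05 (limma adjusted p = 0.0465), with the nearest arrays 11.63 and 11.65. Leaving out MWCNT array 1 left 1 call, and leaving out any other array of these 2 groups left 0.

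The largest differences between the particles where none passed were 0.25 ± 0.14 for NDUFA5 (10 ug/ml, 1 h, limma adjusted p = 0.546), -0.13 ± 0.05 for NDUFA3 (100 ug/ml, 1 h, limma adjusted p = 0.689) and 0.26 ± 0.10 for the dim assembly factor NDUFAF5 (10 ug/ml, 24 h, limma adjusted p = 0.129), each as MWCNT minus TiO2. The 95% intervals of the difference between the particles lay within 0.5 log2 units for 72 or 73 genes in each of these comparisons.

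Dose made no difference that passed. Between 100 and 10 ug/ml 0 of 73 genes were called for MWCNT at 1 h (0.635% of all genes), TiO2 at 1 h (0.293%), MWCNT at 24 h (0%) and TiO2 at 24 h (0.986%), and limma gave 1, 0, 0 and 3 genes at an unadjusted p under 0.05. The largest differences were NDUFA5 for MWCNT at 1 h (-0.24 ± 0.14), ATP5MC2P1 for TiO2 at 1 h (0.14 ± 0.12), NDUFAF5 for MWCNT at 24 h (-0.12 ± 0.10) and NDUFA5 for TiO2 at 24 h (0.21 ± 0.14). The first of these changed sign to 0.02 when the 2 NDUFA5 probe sets were averaged, the second of them having a mean of 3.37.

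The difference between the effect at 24 h and the effect at 1 h was tested for each particle and dose, and 0 of 73 genes passed in any of the 4 (0%, 0.669%, 0.0167% and 2.2% of all genes called for MWCNT at 10 and 100 ug/ml and TiO2 at 10 and 100 ug/ml). At an unadjusted p under 0.05 limma gave 4, 11, 4 and 4. The signs were mostly upward, with 61, 62, 48 and 46 of the 73 above 0, where 52.1%, 54.2%, 48% and 48.5% of all genes were, and medians of 0.064, 0.075, 0.031 and 0.032. NDUFA3 had the largest for MWCNT at 10 ug/ml (0.23 ± 0.07, limma adjusted p = 0.843) and the smallest adjusted p for MWCNT at 100 ug/ml (limma adjusted p = 0.132). NDUFAF5 (0.27 ± 0.15), ATP5MC2P1 (0.33 ± 0.17) and NDUFA5 (0.39 ± 0.20) had the largest in the other 3; their pooled SDs within groups were 0.14, 0.15 and 0.19, against a median of 0.05. These effects contain both control groups, so the same control arrays enter each of them, and the reason for the signs was not tested.

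Genes that serve the chain without being part of it were read from lists written from general knowledge, with earlier results of these data known. Assembly factors of complexes I to V outside the NDUFAF family (18 of 33 measured) gave 6 that rose and 0 that fell in the control over time (33.3%, against 31.7% of all genes). Among them NUBPL, which inserts iron-sulfur clusters into complex I, rose by 0.44 ± 0.10 (limma adjusted p = 0.00108) and UQCC1, an assembly factor of complex III, by 0.35 ± 0.09 (limma adjusted p = 0.0046), and both calls held in all 12 alternative settings. COX20, an assembly factor of complex IV, had the largest differences with particles: 0.98 ± 0.25 with MWCNT at 100 ug/ml, 1.35 ± 0.25 with TiO2 at 10 ug/ml and 1.66 ± 0.25 with TiO2 at 100 ug/ml at 1 h (limma adjusted p = 0.0381, 0.00807 and 0.000168). Its 1 h controls were at 5.05 ± 0.25 and its exposed groups at 6.02 ± 0.11, 6.40 ± 0.06 and 6.71 ± 0.38, all below the median of the table. The first call held in 6 of 11 alternatives, the second in 8 and the third in 11. The 24 h control was also higher than the 1 h control, by 1.16 ± 0.25 (limma adjusted p = 0.000639), with a wide spread of 6.21 ± 0.83.

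Of the regulators of mitochondrial number and dynamics, 20 of 22 were measured. With TiO2 at 10 ug/ml for 24 h 6 fell and 1 rose (35%, against 6.05% of all genes) and at 100 ug/ml 3 fell and 1 rose (20%, against 13.2%), with medians of -0.106 and -0.112 and those of all genes -0.025 and -0.031. PPARGC1A, the coactivator PGC-1alpha, fell by 0.34 ± 0.10 (limma adjusted p = 0.0442) and 0.35 ± 0.10 (limma adjusted p = 0.0235), from 8.07 ± 0.11 to 7.73 ± 0.17 and 7.72 ± 0.06. Its relative PPRC1 fell by 0.24 ± 0.05 and 0.31 ± 0.05 (limma adjusted p = 0.02 and 0.00121), and PINK1, a kinase that marks damaged mitochondria, by 0.23 ± 0.06 at 100 ug/ml (limma adjusted p = 0.0108). GABPB1, a subunit of the factor GABP, fell by 0.25 at 10 ug/ml (limma adjusted p = 0.0468). Of 12 alternative settings, PPRC1 kept its call in 7 at 10 ug/ml and 11 at 100 ug/ml, PPARGC1A in 6 and 7, PINK1 in 8 and GABPB1 in 4. No list was tested as a set. In the control over time 5 regulators rose and 2 fell (35%, against 31.7% of all genes), among them TFB1M (0.47 ± 0.05), which methylates mitochondrial ribosomal RNA, NRF1 (0.44 ± 0.07) and TFB2M (-0.49 ± 0.07), which starts mitochondrial transcription, all kept in 12 of 12 alternative settings.

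Mitochondrial ribosomal proteins (51 measured) gave 15 that fell and 3 that rose in the control over time (35.3%, against 31.7% of all genes), with MRPL20 down by 0.35 ± 0.05 and MRPS17 by 0.32 ± 0.04 (limma adjusted p = 1.36e-05 and 2.24e-07). With TiO2 at 100 ug/ml for 24 h 1 rose, MRPL23 by 0.26 ± 0.05, and 2 fell (5.88% of the list, against 13.2% of all genes). Of 24 genes of the tricarboxylic acid cycle and pyruvate dehydrogenase 6 rose and 1 fell over time (29.2%, against 31.7% of all genes), with IDH2 up by 0.42 ± 0.06 (limma adjusted p = 4.35e-06), PC up by 0.27 and PDP1 down by 0.31. Only IDH3G, a subunit of isocitrate dehydrogenase, passed with TiO2 at 100 ug/ml for 24 h (4.17% of the list, against 13.2% of all genes), higher by 0.34 ± 0.06 (limma adjusted p = 0.00228, kept in 11 of 12), and it was lower with MWCNT than with TiO2 by 0.34 ± 0.06 (limma adjusted p = 0.00183).

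Carriers and related genes of cytochrome c, quinone and exchange (21 measured) gave 7 that rose and 1 that fell over time (38.1%, against 31.7% of all genes), with ETFDH up by 0.40 and the dim GPD2 by 0.45. UCP2, an inner membrane carrier of the uncoupling protein family, fell by 0.36 ± 0.07 with TiO2 at 100 ug/ml for 24 h (9.65 ± 0.06 to 9.29 ± 0.07, limma adjusted p = 0.00228) and was higher with MWCNT than with TiO2 by 0.36 ± 0.07 (limma adjusted p = 0.00188), the latter kept in 12 of 12 alternatives. HCCS, which attaches haem to cytochrome c, fell by 0.34 ± 0.04 over time (limma adjusted p = 1.65e-06). Of 19 glycolysis genes, 2 rose and 4 fell over time (31.6%, against 31.7% of all genes), with the glucose transporter SLC2A1 down by 0.66 ± 0.06 (limma adjusted p = 1.4e-08). PFKFB3, which makes the main activator of phosphofructokinase, rose by 0.61 ± 0.09 with MWCNT at 100 ug/ml for 1 h (limma adjusted p = 6.3e-05), and the enolase ENO2 fell by 0.28 ± 0.05 with TiO2 at 100 ug/ml for 24 h (limma adjusted p = 0.00207).

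The other called genes that the rule names in these lists follow. With TiO2 for 24 h SCO2, a copper chaperone of complex IV, fell by 0.19 at 10 ug/ml and 0.18 at 100 ug/ml, and at 100 ug/ml ATPAF2, an assembly factor of the ATP synthase, fell by 0.22, MRPL58 by 0.16, MRPS27 by 0.12, HCCS by 0.14 and SLC2A1 by 0.21, while PFKP rose by 0.22. Their calls held in 4 to 9 of 12 alternative settings. At 100 ug/ml 11.1% of the assembly factors, 9.52% of the carriers and related genes and 21.1% of the glycolysis genes were called, against 13.2% of all genes. At 10 ug/ml 5.56% of the assembly factors were, against 6.05% of all genes. After MWCNT at 100 ug/ml for 1 h IDH3B fell by 0.18, kept in 3 of 12, and PFKFB3 rose by 0.33 after TiO2 at 100 ug/ml for 1 h, kept in 5 of 12. PFKFB3 was higher with MWCNT at 100 than at 10 ug/ml at 1 h by 0.54 (kept in 11 of 12), and MRPL23 with TiO2 at 100 than at 10 ug/ml at 24 h by 0.22 (kept in 6 of 12). Over time MRPS15 fell by 0.34, PFKFB3 fell by 0.51 and ALDOC rose by 0.39.

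Between the particles at 24 h the called genes of the lists went both ways, and at most 3 per list and comparison are named. Of the mitochondrial ribosomal proteins, 6 were higher and 1 lower with MWCNT at 100 ug/ml. The called share of each list ran from 5.56% to 15.8% at 100 ug/ml, against 12.2% of all genes. At 10 ug/ml it ran from 0% to 20% (the regulators), against 4.88% of all genes. At 10 ug/ml DLST (0.18), MRPL58 (0.17), MRPL46 (0.17), PINK1 (0.21) and DNM1L (0.21) were higher with MWCNT than with TiO2, and SIRT3 (-0.22) was lower. At 100 ug/ml ENO2 (0.33), PPRC1 (0.23), DLST (0.20), COQ9 (0.18), MRPL17 (0.18), MRPS11 (0.18), PINK1 (0.18) and TTC19 (0.13) were higher with MWCNT, and PFKP (-0.30), MRPL23 (-0.29) and HK2 (-0.26) were lower. ENO2, PFKP and MRPL23 kept their calls in 12 of 12 alternative settings, PPRC1 in 11, and the remaining genes of both doses in 3 to 9.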

How the data were processed

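The authors deposited 1 table of log2 expression values per probe set for the 30 arrays, made with RMA per the submitters' processing notes (version not given in the sources used here). RMA corrects background, equalises the arrays by quantiles and summarises probes, so a shift shared by all genes would not be seen. Of 22277 probe sets, 62 were array controls, 1043 carried several symbols and 2108 none, and these were left out; 19064 carried 1 symbol. The probe set with the highest mean was used per gene, giving 11963 genes. The 73 genes came from 106 probe sets, 21 of them with more than 1.

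Group means were estimated per gene from all 30 arrays with limma 3.58.1 (R 4.3.3; statmod 1.5.0), two-sided, adjusted by Benjamini and Hochberg over all genes within each of 21 comparisons, at a threshold of 0.05. "Rose", "fell" and "called" refer to genes that passed. The script was tested on simulated data. Python 3.11.15 (numpy 2.4.6, pandas 2.3.3; figures with matplotlib 3.10.9) made the tables. The number of arrays limits the precision.

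Alternatives were a filter on dim genes (6923 left), cyclic loess, only the compared groups in the fit, array weights, the replicate number as a block, the mean of a gene's probe sets, and leaving out each array. The members and lists were chosen with earlier results of these data known. Named are every called gene in comparisons with particles, up to 12 each way over time, the largest difference where none passed, isoforms, core subunits, and called genes of the other lists among the 3 largest per list and comparison. Replicate numbers did not pair the arrays: deviations of same-numbered arrays correlated with a median of 0.00905 over 135 pairs, 24 of them over 0.1. Promoters matched by symbol.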

Additional observations from a re-analysis of the deposited data

Results flagged for a closer look

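Both genes of the respiratory chain set that differed between the particles were tested directly. With 100 ug/ml for 24 h, NDUFAF1 differed by 0.17 (MWCNT minus TiO2, limma adjusted p = 0.0377), a call kept in 4 of 12 alternative settings. NDUFB6 differed by -0.16 in the same comparison (limma adjusted p = 0.0465), kept in 5 of 12. At 10 ug/ml and 24 h neither gene passed.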

How the results depend on the processing

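Over the 21 comparisons, 232 of the counts of called genes recomputed under an alternative stayed within 1.5 times the main count and 44 did not. When groups outside the comparison were dropped, the counts were 0 for MWCNT 100 at 1 h, 0 for TiO2 10 and 0 for TiO2 100 at 24 h, and 5 for the control over time. With array weights they were 3 for MWCNT 100, 1 for TiO2 10 and 2 for TiO2 100 at 1 h, 5 for MWCNT 100, 4 for TiO2 10 and 6 for TiO2 100 at 24 h, 25 for the control over time, 3 and 10 between the particles at 24 h (10 and 100 ug/ml), and 6 for MWCNT 100, 1 for TiO2 10 and 3 for TiO2 100 for the effect at 24 h minus 1 h. Calls over all genes moved with the weights, from 0 to 722 for MWCNT 100 and from 1577 to 3081 for TiO2 100 at 24 h. The filter on dim genes gave 1 for TiO2 100 at 1 h, 5 for TiO2 100 at 24 h and 4 between the particles at 100 ug/ml and 24 h. Cyclic loess gave 0 for TiO2 10 and 1 for TiO2 100 at 24 h, and 1 between the particles at 10 ug/ml and 24 h, where the mean of probe sets also gave 1. The fit with the replicate block gave 1 between the particles at 100 ug/ml and 24 h; it moved no other count by more than 1.5 times, but ATP5PO over time and NDUFB6 between the particles lost their calls. Leaving out 1 array gave 0 to 1 for MWCNT 100 at 1 h, 0 to 2 for TiO2 100 at 1 h, 0 to 2 for TiO2 10 and 0 to 3 for TiO2 100 at 24 h, 11 to 19 for the control over time, 0 to 1 in each comparison of the particles at 24 h, and 0 in the other 14 comparisons. Where this left 2 arrays in a group, the pooled spread was used. The difference of NDUFA5 between MWCNT doses at 1 h turned to 0.02 with the mean of probe sets. Of the other values for named members, 405 kept side and direction, 78 lost the call and 3 gained it; for named genes of the other lists 543 kept it and 207 lost it. Of the median differences, 256 moved by less than the spread between arrays and 20 by more. With cyclic loess those at 24 h were 0.011 for TiO2 10 and 0.022 for TiO2 100, where the main values were -0.014 and 0.002. The median effect at 24 h minus 1 h for TiO2 100 ran from 0.011 to 0.074. The causes were not tested.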

Other observations

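A further 9 probe sets matched the symbol rule together with another symbol and entered no comparison. Some are sets of PTCD1 or KCTD14, which the rule does not name. They matched only through the joined symbols ATP5MF-PTCD1 and NDUFC2-KCTD14. After MWCNT at 10 ug/ml for 1 h all 9 lay below the control, with differences from -0.10 to -0.02, and after MWCNT at 100 ug/ml for 1 h from -0.25 to -0.02. Sets of KCTD14 gave both the -0.10 and the -0.25. With TiO2 at 10 and 100 ug/ml for 1 h, 8 and 7 of 9 lay below the control in rounded values, and the rest rounded to 0. Over all genes 55.9%, 59.4%, 59% and 63.4% did in these 4 comparisons, counted on unrounded values. At 24 h, again in rounded values, 3 and 6 of 9 lay below the control with MWCNT at 10 and 100 ug/ml, and 4 and 3 with TiO2. Of all genes 53.3%, 53.9%, 57.5% and 57.9% did, on unrounded values. These share the control arrays of the report.

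A dim probe set of the ATP synthase gamma subunit gene ATP5F1C (mean 7.42), not the one tested, was higher by 0.71 in the 24 h than in the 1 h control, while the other 3 probe sets of that gene gave -0.02 to 0.04. It was picked after its value was seen, and which transcript it reads was not tested.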
